A study of Rattus norvegicus with 6 samples.

Results

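The elastic fibre genes examined were Eln, Fbn1, Fbln1, Fbln2, Fbln5, Lox, Loxl1, Mfap4, Mfap5 and Emilin1, taken by their symbols from the deposited expression table. All 10 were found among its 17833 genes. Bulk RNA-seq of pulmonary vein (PV) tissue from 6 wild-type Sprague-Dawley rats was available, 3 of which had undergone banding of the pulmonary veins on both sides (BPVB) and 3 a sham operation. Surgery was performed at postnatal day 1 in both groups, under hypothermic anesthesia with the chest opened, and the sham procedure left out only the constriction. The labels name no drug for either group. The veins of the right upper lobe were collected at postnatal day 21, and each library came from 1 rat. Because the vein tissue was sequenced whole, fewer cells of a type and less RNA per cell cannot be told apart.

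An elastic fibre has a core of crosslinked elastin laid on a scaffold of fibrillin microfibrils. Vascular smooth muscle cells and fibroblasts secrete the soluble monomer tropoelastin, fibulins carry it to the microfibrils, and copper-dependent lysyl oxidases join its lysines into an insoluble polymer. This polymer gives the vessel wall its recoil. Most elastin of the wall is laid down around birth and turns over very slowly.

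The libraries held between 23439506 and 29725808 counted fragments. Expression was given as fragments per kilobase of gene and per 1000000 counted fragments (FPKM), a scale on which genes of unequal length can be set side by side. At least 1407 fragments per library lay behind the value of each of the 10 genes. The groups were compared with limma on log2(FPKM + 0.5) over 15150 genes, those whose FPKM averaged 0.1 or more, which included all 10 genes, and a gene was called at an adjusted p under 0.05 (two-sided, Benjamini-Hochberg adjustment over all tested genes). Markers of the labelled tissue were present. The summed FPKM of 6 atrial myocardial genes ranged from 12118.9 to 16799.2 over the 6 libraries, that of 6 smooth muscle genes from 4378 to 4646 and that of 5 endothelial genes from 886 to 989. The summed FPKM of 4 cartilage genes was at most 0.398, with Col9a1 and Cnmd at 0 in at least 1 library each, so that airway cartilage was near absent.

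In the banded veins, the genes for tropoelastin (Eln), for fibulin-5 (Fbln5) and for lysyl oxidase (Lox) rose by 1.57-fold, 1.59-fold and 2.0-fold in mean FPKM. Fbln2, which encodes fibulin-2, fell to 0.676 of its sham level. The microfibril genes Fbn1 and Mfap5 differed by factors of 1.04 and 0.998 and were not called. Of the 10 genes, 8 were called, beside 31.5% of all tested genes. Of these, 7 were higher and 1 was lower, beside 17.2% of all tested genes called higher and 14.3% called lower. The median log2 fold change of the 10 genes was 0.25, beside 0.025 over all tested genes. There was no overlap between the groups in 9 of the 10 genes, beside 45.6% of all tested genes. BPVB was the higher group in 8 of them (25.2% of all tested genes) and the lower group in 1 (20.5%). With limma, 0 of the 10 genes passed the study's own rule for differential expression, an adjusted p under 0.05 and a log2 fold change beyond 1 in size, which 3.27% of all tested genes passed. The same count was 0 at an unadjusted p under 0.05 and 0 with limma-voom, although Lox lay directly below the fold threshold.

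**Figure D1:**
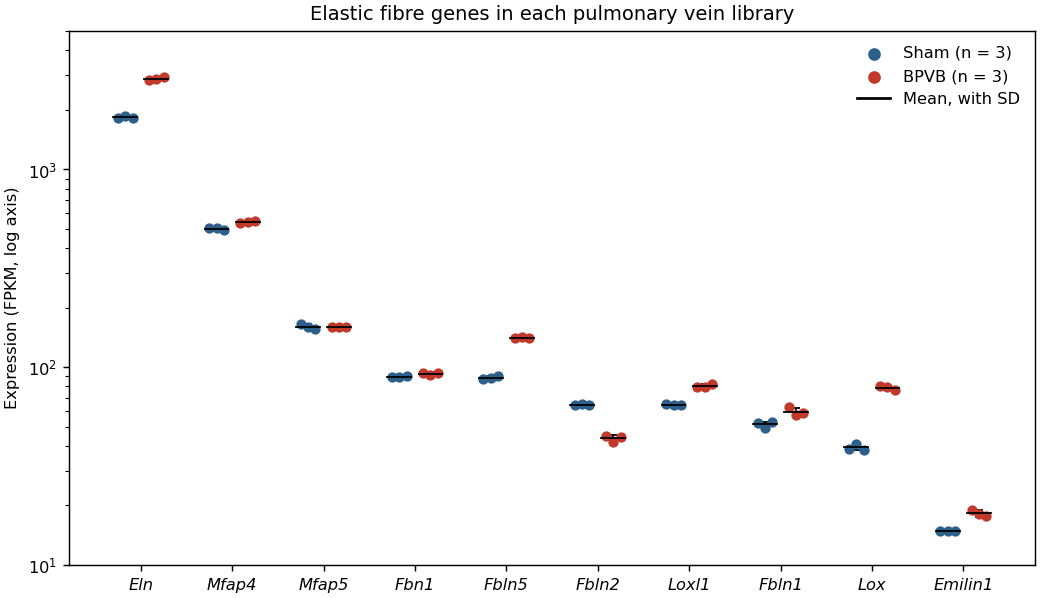
FPKM of the 10 elastic fibre genes on a log axis, with 1 point per library, 3 sham rats (blue) and 3 BPVB rats (red), and black bars for the mean and SD. Eln lies far above the other genes in both groups, between 1817 and 2920 FPKM, and the points of the groups overlap for Mfap5 alone.

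Eln (NCBI Gene 25043) encodes tropoelastin. Its FPKM was 2849.55, 2868 and 2920.4 in the banded veins and 1818, 1864 and 1817 in the sham veins. All 3 banded veins lay above all 3 sham veins, and the SD was 1.28% of the mean in the BPVB group and 1.48% in the sham group. The mean was 2879 ± 37 FPKM after banding and 1833 ± 27 FPKM after sham surgery (SD, n = 3 each), with a log2 fold change of 0.65 (standard error 0.020, limma, adjusted p = 9.5e-08). In the sham group Eln was at rank 21 of all genes by FPKM in each library, and in the BPVB group at rank 9 or 10. It took 1.03% ± 0.013 of all counted fragments in banded veins and 0.658% ± 0.0097 in sham veins (SD, n = 3 each). Between 268509 and 311649 fragments of each BPVB library came from this gene.

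Eln was also the bulk of the 10 genes in sum. It made up between 70.0% and 70.5% of their summed FPKM in the BPVB libraries and between 62.7% and 63.3% in the sham libraries. The summed FPKM of the other 9 genes was 1219 ± 5.4 in the BPVB group and 1074 ± 10.0 in the sham group (SD, n = 3 each), a far smaller step than that of Eln.

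The lysyl oxidases oxidize lysines of tropoelastin and of collagens so that these can be crosslinked. Lox (NCBI Gene 24914) had an FPKM of 80.1, 79.2 and 76.9 in the banded veins and of 38.8, 41.0 and 38.3 in the sham veins. All banded veins lay far above all sham veins. The mean was 78.7 ± 1.7 FPKM after banding and 39.3 ± 1.4 FPKM without it (SD, n = 3 each). Its log2 fold change of 0.99 (standard error 0.039, limma, adjusted p = 3.8e-07) ranked 344 among all rises. It passed 1 after scaling to a common sum (1.03), after quantile normalization (1.01), with BPVB replicate 3 left out (1.01) and with sham replicate 2 left out (1.02).

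Loxl1 (NCBI Gene 315714) encodes the lysyl oxidase-like enzyme that is needed to renew elastic fibres in adult tissue. Its FPKM was 79.7, 79.9 and 82.4 in the banded veins and 65.4, 64.5 and 64.0 in the sham veins. The groups were apart, with a smaller gap than for Lox. The log2 fold change was 0.32 (standard error 0.032, limma, adjusted p = 9.6e-05). In the sham group Loxl1 was expressed above Lox (64.6 ± 0.71 against 39.3 ± 1.4 FPKM, SD, n = 3 each), whereas in the BPVB group the ranges of both genes overlapped.

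**Figure D2:**
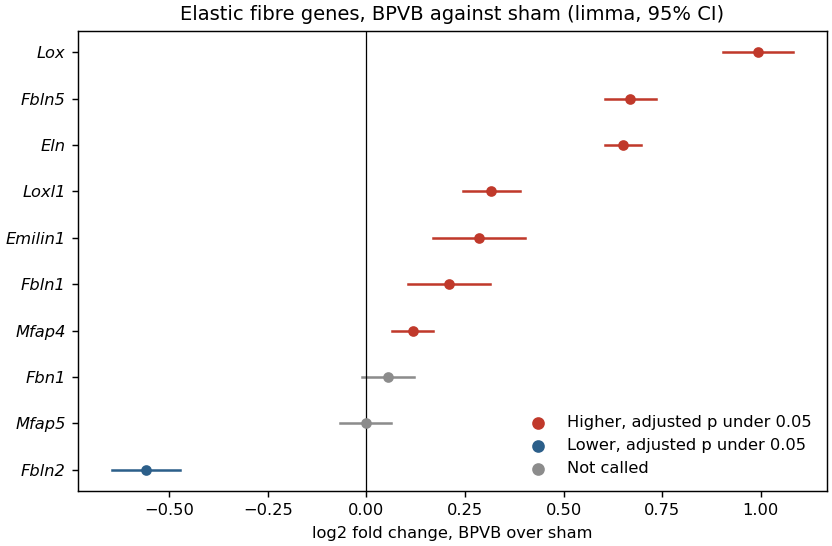
log2 fold change of each elastic fibre gene in BPVB over sham veins, from limma on log2(FPKM + 0.5), with the 95% confidence interval as a line. Lox, Fbln5 and Eln lie highest, the intervals of Fbn1 and Mfap5 cross 0, and Fbln2 lies at -0.56.

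Fibulins are calcium-binding glycoproteins that link tropoelastin, microfibrils and basement membrane. For Fbln5 and Fbln2, which moved in opposite directions, and for Loxl1, whose enzyme is bound by fibulin-5, the promoter windows are given here from RefSeq (rat build GRCr8, 5′ to 3′ along the gene, from 250 bases before to 50 bases after the start of the gene). Of the 10 genes, 5 were matched by gene number: Fbln2, Fbln5, Fbn1, Loxl1 and Mfap5. Capitals mark matches on either strand to a GC box (GGGCGG), a SMAD-binding element (CAGAC) or an MCAT element of the TEAD factors (CATTCC).
Fbln5 (chr6:126742657-126742956, minus strand): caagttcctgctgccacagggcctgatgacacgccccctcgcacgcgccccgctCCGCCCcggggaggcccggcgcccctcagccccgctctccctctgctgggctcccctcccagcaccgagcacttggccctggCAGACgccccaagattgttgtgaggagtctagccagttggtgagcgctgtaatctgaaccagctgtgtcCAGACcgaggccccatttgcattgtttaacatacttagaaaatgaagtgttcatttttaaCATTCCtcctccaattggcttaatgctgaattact
Loxl1 (chr8:67612175-67612474, minus strand): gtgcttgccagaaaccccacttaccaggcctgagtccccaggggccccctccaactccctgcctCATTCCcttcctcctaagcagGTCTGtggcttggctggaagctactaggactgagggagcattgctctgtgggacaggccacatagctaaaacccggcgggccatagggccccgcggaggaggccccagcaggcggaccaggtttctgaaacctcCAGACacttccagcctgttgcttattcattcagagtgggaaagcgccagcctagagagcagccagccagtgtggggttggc
Fbln2 (chr4:125261409-125261708, plus strand): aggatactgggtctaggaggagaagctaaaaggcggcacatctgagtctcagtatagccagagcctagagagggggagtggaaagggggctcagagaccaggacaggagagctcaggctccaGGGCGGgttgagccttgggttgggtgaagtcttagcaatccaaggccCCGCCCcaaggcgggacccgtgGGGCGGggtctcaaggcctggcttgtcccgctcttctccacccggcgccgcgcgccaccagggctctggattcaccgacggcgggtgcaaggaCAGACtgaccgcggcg
The Fbln5 window held 1 GC box, 2 SMAD-binding elements and 1 MCAT element, and the Loxl1 window held 2 SMAD-binding elements and 1 MCAT element. The Fbln2 window held 3 GC boxes and 1 SMAD-binding element. Among all 33469 promoter windows of the same length, 33.1% held a GC box, 50.1% a SMAD-binding element and 14.2% an MCAT element. A TATA box (TATAAA), an AP-1 site (TGANTCA) and a CArG box were also searched, and no match was found in the 3 windows. They occurred in 14.2%, 7.33% and 1.64% of all windows. No marked motif overlapped another.

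Fbln5 (NCBI Gene 29158) encodes the fibulin that binds tropoelastin and integrins and guides elastin onto microfibrils. Its FPKM was 140.3, 141.4 and 140.7 in the banded veins and 86.8, 88.3 and 90.0 in the sham veins. The banded veins were close to each other (SD 0.413% of the mean) and far above all sham veins. The mean rose from 88.4 ± 1.6 to 140.8 ± 0.58 FPKM (SD, n = 3 each), with a log2 fold change of 0.67 (standard error 0.028, limma, adjusted p = 5.7e-07).

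Fbln1 (NCBI Gene 315191) encodes a fibulin found in elastic fibres and in basement membranes. It had an FPKM of 62.9, 57.2 and 58.4 in the banded veins and of 51.9, 49.5 and 52.6 in the sham veins. The groups did not overlap, and BPVB replicate 1 stood above the other two banded veins. The log2 fold change was 0.21 (standard error 0.046, limma, adjusted p = 0.0080).

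Fbln2 (NCBI Gene 282583) encodes a fibulin at the boundary of elastin core and microfibril and in basement membranes, and is active in the developing cushions and vessels. Its FPKM was 44.8, 42.1 and 44.5 in the banded veins and 64.3, 65.4 and 64.5 in the sham veins. This was the reverse of the order seen for Fbln5 and Fbln1, with every banded vein below every sham vein. The mean fell from 64.7 ± 0.59 to 43.8 ± 1.5 FPKM (SD, n = 3 each), with a log2 fold change of -0.56 (standard error 0.037, limma, adjusted p = 8.2e-06).

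Of the 10 genes, Mfap5, Fbn1 and Mfap4 had the smallest log2 fold changes. Fbn1 (NCBI Gene 83727) encodes fibrillin-1, the main protein of the microfibril. Its FPKM was 94.0, 91.3 and 93.5 in the banded veins and 89.1, 89.5 and 89.8 in the sham veins. The banded veins lay above the sham veins by a narrow margin. The log2 fold change of 0.054 had a 95% confidence interval from -0.012 to 0.12 and was not called (limma, adjusted p = 0.19). On the recovered fragments, limma-voom gave 0.055 and an adjusted p of 0.015.

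Mfap5 (NCBI Gene 362429) encodes a small glycoprotein bound to fibrillin. It had an FPKM of 159.9, 160.5 and 160.0 in the banded veins and of 164.6, 160.1 and 156.5 in the sham veins. The banded values fell inside the sham range, and the sham values were more spread. The interval of the log2 fold change ran from -0.066 to 0.062 (estimate -0.0023, limma, adjusted p = 0.96), and did not reach the changes seen for Eln or Fbln2.

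Mfap4 (NCBI Gene 287382) encodes a fibrinogen-related protein that binds tropoelastin and fibrillin and is made by vascular smooth muscle. It was expressed second to Eln, at 538, 544 and 550.2 FPKM in the banded veins and at 505, 506 and 492 FPKM in the sham veins. The groups were apart by a small step. The log2 fold change was 0.12 (standard error 0.023, limma, adjusted p = 0.0043).

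Emilin1 (NCBI Gene 298845) encodes a glycoprotein at the interface of elastin and microfibrils that also restrains the maturation of transforming growth factor β. Its FPKM was 19.0, 18.1 and 17.6 in the banded veins and 14.9, 14.9 and 14.8 in the sham veins. The SD of the sham veins was 0.42% of their mean, and all banded veins were above them. The log2 fold change was 0.29 (standard error 0.052, limma, adjusted p = 0.0030).

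The order of the levels changed between the groups. In the sham group, FPKM decreased from Eln through Mfap4, Mfap5, Fbn1, Fbln5, Fbln2, Loxl1, Fbln1 and Lox to Emilin1. Neighbours whose ranges overlapped in that order were Fbn1 with Fbln5 and Fbln2 with Loxl1. In the BPVB group, Fbln5 lay above Fbn1 with no overlap, Lox came to overlap Loxl1, and Fbln2 was at position 9, below Fbln1.

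Ratios of FPKM within a library do not depend on how that library was scaled, and show whether genes kept pace with each other. In all, 12 ratios were compared by exact permutation tests of 3 libraries against 3, which allow no p under 0.1. Each ratio held at least 1 gene whose groups did not overlap, as was so for 45.6% of all tested genes. The count of ratios is therefore not separate from the changes of single genes. For 11 of the 12 ratios the groups did not overlap and the test reached its smallest p of 0.1 (0.11 after Benjamini-Hochberg adjustment over the 12). The exception was Fbln5 relative to Eln, with 4.89 ± 0.063 FPKM of Fbln5 per 100 FPKM of Eln in the BPVB group and 4.82 ± 0.11 in the sham group (SD, n = 3 each, exact permutation test, p = 0.4). Lox rose further than Eln, with 2.81, 2.76 and 2.63 FPKM per 100 FPKM of Eln in the banded veins and 2.13, 2.197 and 2.11 in the sham veins. Loxl1 did not keep pace, with 2.80 ± 0.018 FPKM per 100 of Eln against 3.53 ± 0.071 in the sham group. Relative to Eln, the level in the BPVB group was 0.661 times that in the sham group for Fbn1, 0.691 times for Mfap4 and 0.781 times for Emilin1.

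Among the fibulins, Fbln2 stood at 31.9, 29.7 and 31.6 FPKM per 100 FPKM of Fbln5 in the banded veins and at 74.1, 74.1 and 71.6 in the sham veins. The ratio in the banded veins was 0.425 times that in the sham veins. Fbln1 per Fbln5 was 0.727 times and Mfap5 per Mfap4 0.920 times the sham ratio. Eln was also set against genes outside the elastic fibre. It was 1.23 times as high relative to Col1a1, the gene of the main fibrillar collagen chain. Relative to Acta2 and Myh11, both contractile genes of smooth muscle, it was 1.79 and 1.94 times as high. Both of these fell themselves (log2 fold change -0.18 and -0.30), as did Cnn1 (-0.13) and Tagln (-0.061). Of the same smooth muscle list, Smtn was not called (-0.010) and Des rose by 0.41. Ratios of Eln to the other smooth muscle genes were not computed.

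**Figure D3:**
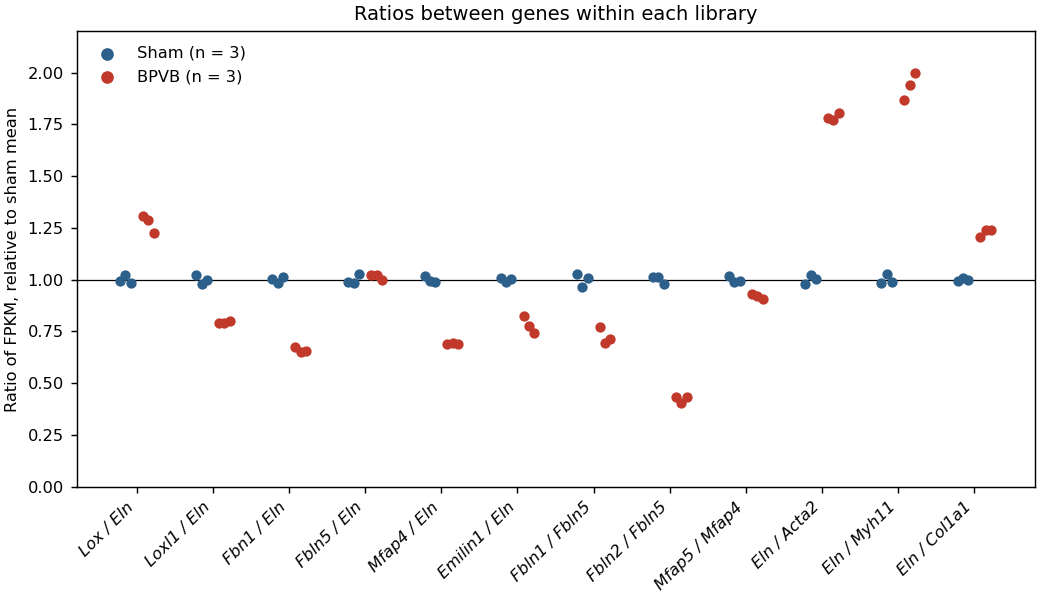
Ratios of FPKM between pairs of genes within each library, divided by the mean ratio of the sham group, with 1 point per library and a line at 1. Fbln5 per Eln overlaps between the groups, Fbln2 per Fbln5 is at 0.425 in the mean of the BPVB libraries, and Eln per Myh11 is at 1.94.

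Genes of other proteins that build the elastic fibre were taken from a list of 18. With limma, 6 were called higher and 4 lower, beside 17.2% and 14.3% of all tested genes, and the median log2 fold change was 0.071. The largest rises were in genes of the fibrillin-bound latent transforming growth factor β binding proteins. Ltbp2, whose protein binds fibrillin and fibulin-5, rose from 10.0 ± 0.51 to 18.9 ± 0.77 FPKM (SD, n = 3 each, log2 fold change 0.88), and Ltbp3 from 27.7 ± 1.6 to 40.3 ± 0.74 FPKM (0.54). Ltbp4, which binds fibulin-5 and is needed for elastin assembly, fell from 188 ± 3.4 to 158 ± 0.49 FPKM (-0.25). Adamtsl2, a secreted protein that binds fibrillin-1, rose by 0.41 on the log2 scale. Atp7a, the copper pump that supplies lysyl oxidases, had a log2 fold change of 0.35 (adjusted p = 0.035, limma), and this adjusted p ranged from 0.0070 to 0.12 over the alternatives tried.

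Of the genes called lower, Efemp1, which encodes fibulin-3, fell by 0.36 and Mfap2, which encodes a microfibril glycoprotein related to that of Mfap5, fell by 0.30 on the log2 scale. Emilin2 had a log2 fold change of -0.41 (adjusted p = 0.022, limma, 9.6e-04 to 0.077 over the alternatives). This adjusted p was 0.069 or 0.060 with BPVB replicate 2 or 3 left out, and 0.062 or 0.077 with sham replicate 1 or 2 left out. That of Atp7a was 0.084 or 0.12 with BPVB replicate 1 or 2 left out, and 0.083 or 0.11 with sham replicate 1 or 2 left out.

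Enzymes that degrade elastin and their inhibitors were taken from a list of 13, of which 11 were tested. Of the 11, limma called 9 higher and 1 lower, beside the same 17.2% and 14.3%, and the median log2 fold change was 0.41. Mmp12, the macrophage elastase gene, was covered by 159, 150 and 206 fragments in the banded veins and by 2, 8 and 0 in the sham veins. Its log2 fold change was 2.79 (standard error 0.16, limma, adjusted p = 2.7e-06) and depended on the method, at 2.05 with a pseudocount of 1, 4.45 with a pseudocount of 0.1 and 6.08 with limma-voom on the recovered fragments. Ctss, the gene of the lysosomal elastase cathepsin S, was higher after banding, at 32.2 ± 2.4 against 17.6 ± 2.4 FPKM (SD, n = 3 each). The inhibitor genes Timp1, of a metalloproteinase inhibitor, and Serpina1, of the inhibitor of neutrophil elastase, rose by 0.79 and 0.64 on the log2 scale. Timp3, whose protein is held in the matrix and inhibits metalloproteinases, fell from 278 ± 2.9 to 184 ± 2.8 FPKM (SD, n = 3 each).

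Of 8 genes of receptors for elastin, 3 were called higher and 0 lower with limma, beside 17.2% and 14.3% of all tested genes, and the median log2 fold change was 0.19. At an unadjusted p under 0.05 the counts were 5 and 0, beside 22.8% and 19.2% of all tested genes. With limma-voom 5 and 0 were called, beside 19.9% and 16.9%. Itgb5, a β chain of integrins that bind elastin and fibulin-5, rose by 0.36 on the log2 scale. Ctsa, the protective protein of the elastin receptor complex, rose by 0.28 and Itgb1, the most widely used integrin β chain, by 0.18.

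**Figure D4:**
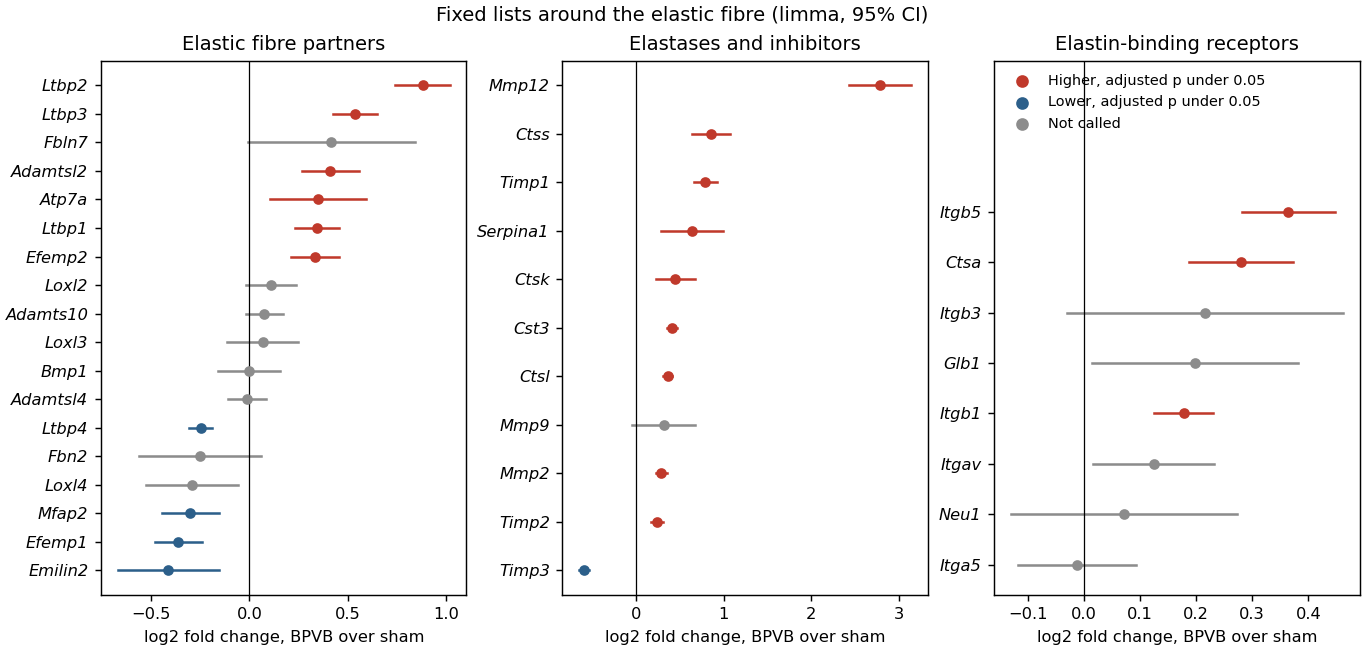
log2 fold changes in BPVB over sham veins with 95% confidence intervals (limma) for elastic fibre partners, elastases with their inhibitors, and elastin-binding receptors. Horizontal scales differ between the panels. Ltbp2 lies highest of the partners at 0.88, Mmp12 at 2.79 among the elastases and inhibitors, and Timp3 is at -0.59.

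Markers of several cell types differed between the groups alongside the elastic fibre genes. The counts of called markers stand beside 17.2% of all tested genes called higher and 14.3% called lower. The summed FPKM of 5 alveolar epithelial genes ranged from 553 to 607 in the banded veins and from 58.6 to 60.4 in the sham veins, with 5 of 5 called higher. The mean of this sum was 9.70 times the sham mean. Sftpc, a surfactant protein gene, went from 36.6 ± 1.4 to 389.9 ± 22 FPKM and Sftpa1 from 8.18 ± 0.24 to 73.6 ± 4.4 FPKM (SD, n = 3 each). Alveolar walls hold elastic fibres of their own, and the part of lung tissue in the rise of Eln, Fbln5 and Lox was not tested. The 3 adipocyte genes, led by Cfd and Adipoq, summed to between 48.3 and 54.2 FPKM in the banded and between 13.7 and 16.0 FPKM in the sham veins, and 3 of 3 were called higher.

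The 5 macrophage genes, led by C1qa and Csf1r, ranged from 68.6 to 77.9 FPKM in sum in the banded veins and from 47.7 to 49.9 FPKM in the sham veins, and 5 of 5 were called higher. The macrophage genes rose beside Mmp12 and Ctss, and their part in those rises was not tested. Here too, the counts of calls stand beside 17.2% of all tested genes called higher and 14.3% called lower. Of the 6 fibroblast genes, 3 were called higher, with Col1a1 among them (log2 fold change 0.36), and 2 lower, with Dcn among them (-0.24). Their sum was 1.07 times that of the sham group. The 6 smooth muscle genes, led by Tagln and Acta2, were at 0.953 times the sham sum, with 1 called higher (Des) and 4 lower. The 5 endothelial genes, led by Vwf and Pecam1, were at 0.903 times, with 3 called lower. The 6 atrial myocardial genes, led by Myl7 and Actc1, were at 0.742 times, with 1 called higher and 5 lower. The part of these shifts in the elastic fibre results was not tested. The sum of 4 mesothelial genes overlapped between the groups, from 4.68 to 6.45 FPKM in the banded veins and from 4.11 to 6.05 FPKM in the sham veins. Krt19, which simple epithelia also express, rose by 0.99 on the log2 scale. The other two tested mesothelial genes were called lower, Msln by a fall of 0.73 and Upk3b, named here after its value was seen, by a change of -0.96. Of the cartilage genes, Acan was called higher at 0.292 ± 0.078 FPKM against 0.049 ± 0.038 (SD, n = 3 each), and Col2a1 had at most 6 fragments in any library.

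**Figure D5:**
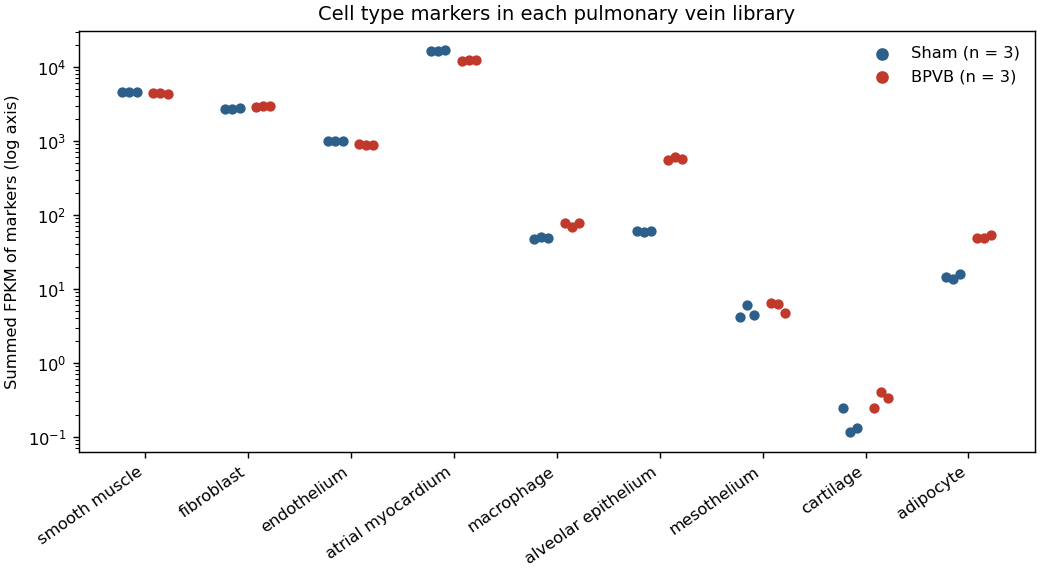
Summed FPKM of the markers of 9 cell types on a log axis, with 1 point per library (blue for sham, red for BPVB). Alveolar epithelial markers lie 9.70 times and adipocyte markers 3.43 times as high in the mean of the BPVB group, and smooth muscle, fibroblast and endothelial markers lie within 10% of the sham mean.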

How the data were processed

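Per the study's methods, paired 150 bp reads were trimmed (fastp), mapped (HISAT) and counted per gene (HTSeq-count). The authors deposited FPKM, with 1 column for each rat, and which counts lie behind these values is not settled. The submitters' processing notes instead list HISAT2 2.0.5, StringTie 1.3.3b, featureCounts 1.5.0-p3 and DESeq2 1.20.0. The genome build, annotation and strand setting are not given in the sources used here. The methods name a VAHTS Universal V6 library kit, the sample labels an NEBNext Ultra kit. If strand was not used, reads of overlapping genes cannot be told apart: in GRCr8, Eln, Fbn1 and Fbln1 each overlap 1 long noncoding RNA gene and Lox overlaps 1 pseudogene, and the deposited table lists none of these 4. The number of per-sample columns not used was 0.

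Library columns were matched to samples by the initial and number of the sample titles. The deposited FPKM are stored to full precision, so the fragments, gene lengths and library totals were recovered from whole-number ratios (relative tolerance 1e-12), which gave whole fragments for 100.0% of the 17833 genes. On average over genes of 30 or more fragments, replicates differed by more than counting noise, with a mean variance over mean of 6.20 (BPVB) and 4.83 (sham). This does not hold for every gene. The SD of Eln in the BPVB group, 1.28% of the mean, lay above counting noise. Those of Emilin1 in the sham group (0.42%) and of Mfap5 (0.20%) and Fbln5 (0.41%) in the BPVB group lay below it. Each library was kept as 1 rat, as the methods select 3 rats per group.

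limma 3.58.1 in R 4.3.3 (lmFit, eBayes with trend) was run on log2(FPKM + 0.5), so fold changes of low genes are understated. Both steps were tested on simulated data. There the recovery gave wrong counts for a few genes, and limma missed most small changes, so a gene that was not called may still differ by a small amount. It also called some genes that had no change, so a small called change is not certain. DESeq2, the test in the study's methods, was not run; limma-voom on the recovered fragments was the count-based alternative. Ratios were compared by exact permutation tests (scipy 1.17.1), with Python 3.11.15, pandas 2.3.3, numpy 2.4.6 and matplotlib 3.10.9 for the other steps. The 10 genes, the gene lists and the tests were chosen with earlier results of these data known. Named beside the 10 are, per list, up to 4 called rises and 4 called falls whose FPKM averaged 1 or more, and the 2 highest markers of each cell type. The alternatives are named in the closing section.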

Additional observations from a re-analysis of the deposited data

How the results depend on the processing

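The alternatives were pseudocounts of 1 and 0.1, no filter or a mean FPKM of at least 1, median-of-ratios scaling, rescaling to a common sum (TPM), quantile normalization, robust eBayes, limma-voom on recovered fragments, the replicate number as a block, and leaving out each library in turn. Under these 16 settings, each of the 8 called elastic fibre genes stayed called in the same direction. Of the others, Fbn1 passed it with voom (log2 fold change 0.055, adjusted p = 0.015), giving 8 genes called higher there. Mfap5 changed sign to 0.029 with TPM and to 0.041 after quantile normalization, and its estimates with each library left out ran from -0.020 to 0.017, the latter without sham replicate 1. The ratios were recomputed only with 0.5 added to both FPKM values and with each library left out, and none crossed 1. The number of genes past both thresholds of the study was 1 in place of 0, by Lox alone, with TPM, after quantile normalization, and without BPVB replicate 3 or sham replicate 2 (0 to 1 with each library left out). Receptor genes called higher were 5 in place of 3 with voom and 4 with TPM. Over the 16 settings, 5 to 6 partner genes were called higher (6 in the report) and 3 to 5 lower (4 in the report). The median of all genes moved from 0.025 to at most 0.056 (TPM) and at least -0.013 (quantile normalization). The cause of these changes was not tested.

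Same-numbered libraries deviated together only very weakly, with a correlation of deviations over 12157 genes between 0.019 and 0.031. For the other pairs of a banded and a sham library it lay between -0.024 and -0.0015. The numbers were not taken as pairs, although each library correlated best with its own number. With the replicate block, 4539 genes were called in place of 4775, and of the called elastic fibre, partner, elastase, inhibitor and receptor genes named in the report, Atp7a alone lost its call (adjusted p = 0.072); the marker genes and the genes named from the annotation were not examined one by one under the alternatives. With 3 rats a group, no exact test could pass 0.05.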

Other observations

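The deposited annotation gives another way to list elastic fibre genes, used here after the values of the 10 genes had been seen. Its terms for elastic fiber, elastic fiber assembly and microfibril held 20 genes, 8 of them among the 10 described above. Of the 20, 11 were called higher and 4 lower (limma, adjusted p under 0.05), beside 17.2% and 14.3% of all tested genes, and the median log2 fold change was 0.16. In the elastic fiber term 5 of 5 genes were called higher, but 4 of these are among the 10. In the assembly term 8 were called higher and 3 lower of 11, with 5 of the 11 among the 10. In the microfibril term, which shares 3 genes with the 10, 4 were called higher and 3 lower of 12, with a median of 0.050. Without those 8, 5 of 12 were called higher and 4 lower, with a median of 0.060. Among these 12, Thsd4, whose ADAMTS-like protein promotes fibrillin-1 assembly, fell from 9.43 ± 0.16 to 6.37 ± 0.10 FPKM (SD, n = 3 each, log2 fold change -0.53, limma, adjusted p = 3.1e-04). Efemp2, the gene of fibulin-4, which brings lysyl oxidase to tropoelastin, rose from 12.8 ± 0.17 to 16.3 ± 0.59 FPKM (log2 fold change 0.33, limma, adjusted p = 0.0015). Fbn2, the fibrillin gene of early development, was at or below 0.270 FPKM in all 6 libraries and was not called (adjusted p = 0.20). The other two genes of the assembly term that were called lower were Myh11, the smooth muscle myosin heavy chain, and Ltbp4, which fell by 0.30 and 0.25 on the log2 scale.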
